A study of Rattus norvegicus with 8 samples.

Results

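The genes described here are 8 markers of the oviduct lining and of the ovarian surface epithelium: Pax8, Cdh16, Muc1, Wfdc2, Sec14l3, Msln, Upk3b and Epcam. They were found by their names among the 26204 gene names on the array and were measured by 9 probes, all 9 of which passed the filter on dim signal and were tested. Ovary RNA was hybridised to 8 single-colour Agilent rat arrays, of which 4 carry the label PMSG and 4 the label control. PMSG stands for pregnant mare serum gonadotropin, which acts mainly like follicle-stimulating hormone. Female rats received it under the skin at 26 days of age, at 50 IU in 0.2 ml of buffered albumin, and the control rats received the same volume of that buffer. Ovaries were collected after 48 h, when the rats were 28 days old. No genotype, strain or transgene is given, and whether each array holds 1 animal or a pool is not stated, so p-values measure only the spread between these samples, which may be technical.

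The ovary lies next to the oviduct and is wrapped in a bursa, and it is covered by a single layer of surface epithelium that belongs to the mesothelium of the body cavity. The oviduct lining derives from the Mullerian duct and consists of secretory and ciliated cells, in which the transcription factor Pax8 marks the secretory type. Mesothelin and uroplakin 3b mark mesothelium, and Epcam marks epithelia in general.

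The arrays lay on 1 slide with 1 scan time, in 2 rows that each held 2 arrays of either label, and no spot was saturated. Columns of the slide were not balanced, as column 1 held only arrays labelled PMSG and column 2 only arrays labelled control. The 75th percentile of the signal ran from 769 to 1103 over the 8 arrays. Markers of granulosa cells, theca cells and oocytes that were tested were all well above background on all 8 arrays. Amh was higher in arrays labelled PMSG (log2 difference 3.03), whereas the LH receptor gene Lhcgr (-1.93) and the steroid synthesis genes Star (-2.75) and Cyp11a1 (-3.36) were lower. The directions of Amh, Lhcgr, Star and Cyp11a1 run against those generally known for this hormone, so groups are named here by their labels only. Theca and interstitial genes as a list moved both ways. Of 7 tested, 3 were higher, among them Insl3 (2.60), and 2 were lower, Star and Cyp11a1. Of 25303 probes tested, 34.2% passed the threshold, 17.6% higher and 16.6% lower in arrays labelled PMSG. With median centring of the arrays in place of the 75th percentile, 34.5% of the probes past the threshold were higher, against 51.4%. Across all tested probes the log2 difference had a median of 0.11, or -0.05 with median centring, and gene differences are to be read relative to it.

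The probes that carry the comparison are 60 bases long, and 4 of them are shown, each for the reason given with it. The Muc1 and Epcam probes span 1299 and 784 bases of the rn4 genome, more than their own length, so their sequence bridges an intron and reads spliced RNA. The dimmer of the 2 Wfdc2 probes reads, from its first base, in an open frame up to a stop codon, which is in capitals. It gives a second reading of Wfdc2 at another place in the transcript. The Upk3b probe is a single spot per array, and the gene it measures had the narrowest gap between the groups among those past the threshold. Sequences run 5′ to 3′.
Muc1 probe: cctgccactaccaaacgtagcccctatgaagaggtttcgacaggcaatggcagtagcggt
Epcam probe: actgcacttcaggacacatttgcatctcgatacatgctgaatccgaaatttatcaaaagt
Wfdc2 probe: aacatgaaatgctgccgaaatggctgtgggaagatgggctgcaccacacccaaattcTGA
Upk3b probe: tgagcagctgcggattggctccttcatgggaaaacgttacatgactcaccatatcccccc

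Of the 8 marker genes, 5 were higher in arrays labelled PMSG past the threshold (limma, adjusted p under 0.05 over all probes), and 0 were lower. These were Muc1, Cdh16, Wfdc2, Pax8 and Upk3b. The share called higher was 17.6% of all probes and 20.7% of all genes with a RefSeq symbol, by the brightest probe of each. The marker genes were chosen with earlier results of these data known. The same 5 had no overlap between the groups, where 17.9% of all tested probes were separated in that direction. Sec14l3, Msln and Epcam overlapped between the groups and did not pass. The median log2 difference of the 8 genes was 1.09, beside 0.11 over all tested probes. All 8 differences were above 0, as they were under every alternative run. In RNA from whole ovaries, more cells of a type and more RNA per cell cannot be told apart.

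**Figure D1:**
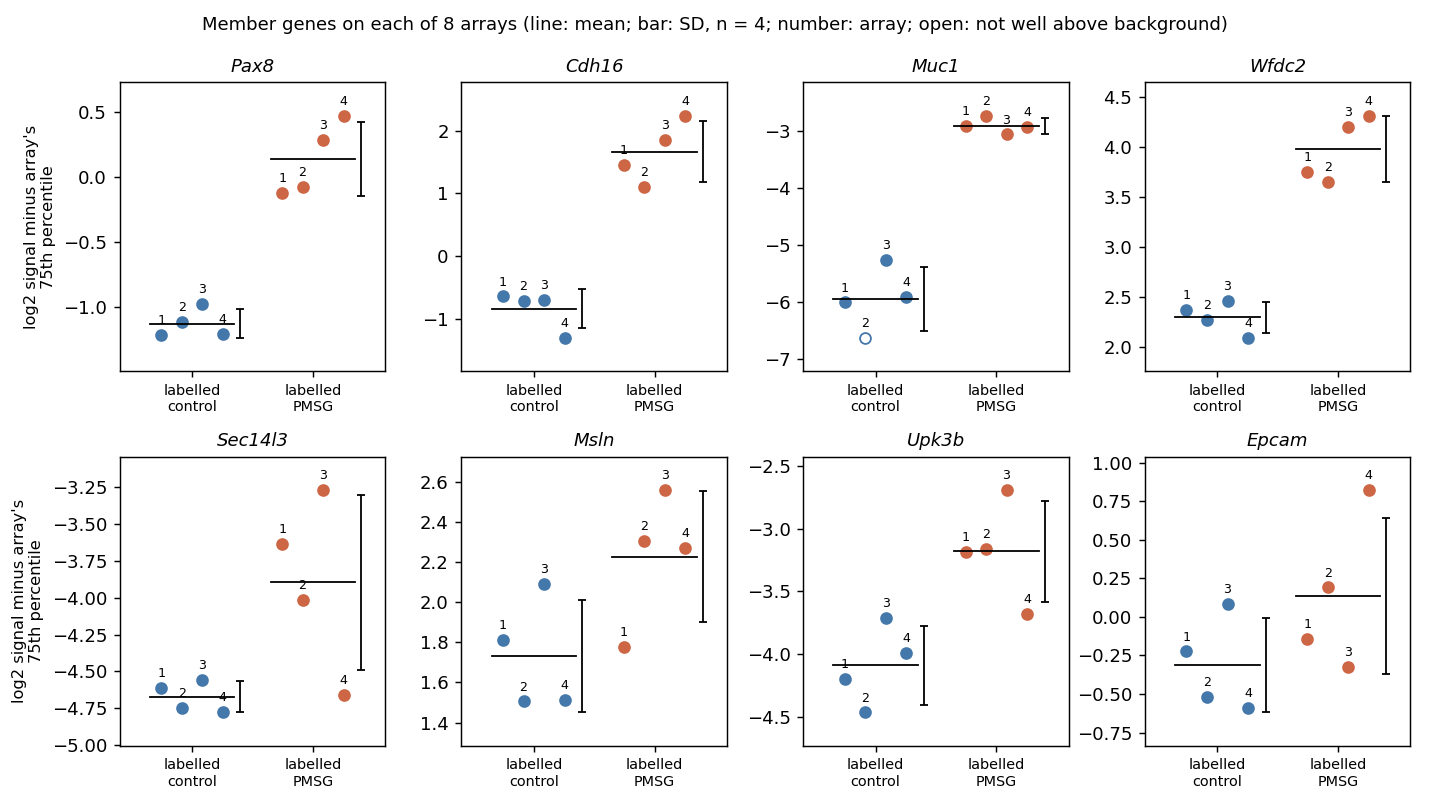
Each panel plots 1 gene, with the log2 signal minus the array's 75th percentile on the vertical axis and the 8 arrays as numbered points by label. Lines are means, bars are SDs (n = 4) and the open point is not well above background; Pax8, Cdh16, Muc1 and Wfdc2 are separated by label, while Upk3b is parted by 0.03 and Sec14l3, Msln and Epcam overlap.

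Pax8 encodes a paired-box transcription factor that sets the identity of thyroid, kidney tubule and Mullerian duct epithelium. Its log2 signal relative to the 75th percentile was -1.22, -1.11, -0.98 and -1.21 on control-labelled arrays 1 to 4, and -0.12, -0.08, 0.28 and 0.47 on PMSG-labelled arrays 1 to 4. All 4 arrays labelled PMSG lay above all 4 labelled control, with a gap of 0.85 between the closest arrays. The log2 difference was 1.27 (SE 0.15, 95% interval 0.92 to 1.62, limma adjusted p = 6.04e-04), a 2.41-fold higher signal. The probe lies on chromosome 3 from 2671539 to 2671598 (rn4, minus strand) and begins at base 2365 of the transcript.

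Cdh16 encodes kidney-specific cadherin, an adhesion protein of kidney tubules and of the ducts from which the genital tract forms. Its values were -0.65, -0.72, -0.71 and -1.31 on the arrays labelled control and 1.45, 1.10, 1.85 and 2.24 on those labelled PMSG. The groups were separated by 1.75, and control array 4 lay below the other 3 control arrays. The log2 difference of 2.51 (SE 0.26, 95% interval 1.91 to 3.10, limma adjusted p = 3.36e-04), or 5.68-fold, was exceeded by 0.261% of all tested probes. Its probe lies on chromosome 19 from 289483 to 289542 (plus strand).

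Muc1 encodes a transmembrane mucin of the apical surface of epithelia. Its values were -6.00, -6.63, -5.26 and -5.91 on control-labelled arrays and -2.92, -2.73, -3.06 and -2.93 on PMSG-labelled arrays. The arrays labelled PMSG lay within 0.33 of each other, and the control-labelled ones spread over 1.37 near the background, with array 2 not well above it. The fit gave a log2 difference of 3.04 (SE 0.26, 95% interval 2.44 to 3.63, limma adjusted p = 1.71e-04), exceeded by 0.0751% of tested probes. With dim values raised to each array's lowest spot well above background, Muc1 under the PMSG label was at least 8.03-fold higher. Normexp background correction, which adds an offset to the signal, lowered the difference to 1.45. The probe spans chromosome 2 from 181402014 to 181403312.

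Wfdc2 encodes a small secreted protein with WAP domains, found in oviduct and other genital tract epithelia and known as HE4. The brighter probe (chromosome 3, 155587997 to 155588056) was printed in 10 spots, which differed by a median of 0.12 (log2) between the lowest and highest spot of an array. It read 2.37, 2.27, 2.46 and 2.09 on control-labelled arrays and 3.75, 3.65, 4.20 and 4.31 on PMSG-labelled arrays. All arrays labelled PMSG lay above all arrays labelled control, with a gap of 1.19. The arrays labelled PMSG were higher by 1.68 (log2, SE 0.17, 95% interval 1.28 to 2.08, limma adjusted p = 3.34e-04), which is 3.20-fold. The probe that ends in the stop codon (chromosome 3, 155585495 to 155585554) gave 1.55 (SE 0.21, limma adjusted p = 9.46e-04), so both probes of this gene rose.

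Upk3b encodes a uroplakin that is made in urothelium and in mesothelium. Its values were -4.20, -4.47, -3.71 and -3.99 on control-labelled arrays and -3.18, -3.16, -2.69 and -3.68 on PMSG-labelled arrays. PMSG array 4 stood 0.03 above control array 3, the closest approach of the labels among the 5 genes that passed. Upk3b was higher by 0.91 (log2, SE 0.23, 95% interval 0.38 to 1.45, limma adjusted p = 0.0178), and the adjusted p ran up to 0.0493 over its alternatives. Normexp background correction lowered the difference to 0.58. The probe lies on chromosome 12 from 21746939 to 21746998 (minus strand).

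Msln encodes mesothelin, a surface protein of the mesothelium. It read 1.81, 1.51, 2.09 and 1.51 on control-labelled arrays and 1.78, 2.30, 2.56 and 2.27 on PMSG-labelled arrays. PMSG array 1 lay below control arrays 1 and 3, and the other 3 PMSG-labelled arrays lay above all controls. The log2 difference of 0.50 (95% interval 0.04 to 0.95) did not pass after adjustment (limma adjusted p = 0.0872), but it did without PMSG array 1 (0.65, limma adjusted p = 0.0313). Over the alternatives its adjusted p ran from 0.0313 to 0.242, and with median centring the difference was 0.33. The probe lies on chromosome 10 from 15017206 to 15017265 (minus strand).

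Sec14l3 encodes a lipid-binding protein of the SEC14 family known from airway epithelium. Its values were -4.61, -4.74, -4.56 and -4.78 on control-labelled arrays and -3.64, -4.02, -3.27 and -4.66 on PMSG-labelled arrays. PMSG array 4 sat among the controls, and the other 3 PMSG-labelled arrays lay above them. The log2 difference of 0.78 (95% interval 0.16 to 1.40) missed the threshold (limma adjusted p = 0.0556). Without PMSG array 4 it was 1.03 and passed (limma adjusted p = 0.0040). Over the alternatives its adjusted p ran from 0.0040 to 0.129, and it passed in 6 of 17, among them the replicate block (limma adjusted p = 0.0463). Normexp correction gave 0.44. The probe lies on chromosome 14 from 84709722 to 84709781.

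Epcam encodes the epithelial cell adhesion molecule, found on nearly all simple epithelia. It read -0.22, -0.52, 0.08 and -0.59 on control-labelled arrays and -0.14, 0.19, -0.33 and 0.82 on PMSG-labelled arrays. The labels overlapped widely, and PMSG array 4 was the highest of all 8. The log2 difference was 0.45 (95% interval -0.16 to 1.06, limma adjusted p = 0.220), and it passed under 0 of 17 alternatives. Without PMSG array 4 it was 0.22. The probe spans chromosome 6 from 11181855 to 11182638.

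**Figure D2:**
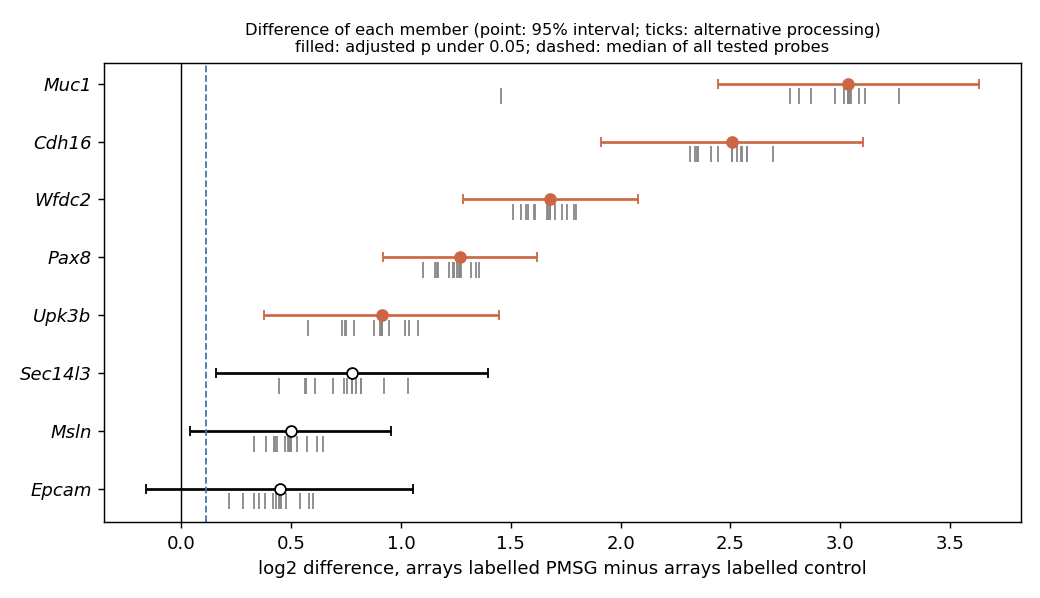
Points give the log2 difference (labelled PMSG minus labelled control) of each gene with its 95% interval, filled where the adjusted p was under 0.05, and grey ticks give the alternatives. The 8 genes run from 0.45 for Epcam to 3.04 for Muc1, whose lone low tick at 1.45 is normexp correction; the dashed line is the median of all tested probes, 0.11.

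Within the rows of the slide, each with 2 arrays per label, all 8 genes were higher under the PMSG label in both rows. Pax8 differed by 1.26 in row 1 and 1.27 in row 2, Cdh16 by 2.49 and 2.52, Wfdc2 by 1.74 and 1.62, Muc1 by 3.37 and 2.70, and Epcam by 0.49 and 0.41. Upk3b differed by 1.30 in row 1 and 0.52 in row 2, Sec14l3 by 1.12 and 0.44, and Msln by 0.92 and 0.07. With the row as a block, Upk3b kept its call (limma adjusted p = 0.0284). In the exact two-sided permutation test over the 8 arrays, the 5 separated genes reached p = 0.0286, the smallest that 4 against 4 can give. Sec14l3 and Msln had an exact permutation p of 0.0857 each, and Epcam of 0.171.

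The genes did not rank the arrays of a label alike. Among control-labelled arrays, array 3 was the highest for 7 of the 8 genes, all but Cdh16, and arrays 2 and 4 were the lowest for 3 and 4 genes. Among PMSG-labelled arrays, array 4 was the highest for Pax8, Cdh16, Wfdc2 and Epcam but the lowest for Sec14l3 and Upk3b. Array 3 was the highest for Sec14l3, Msln and Upk3b and the lowest for Muc1 and Epcam. As centred profiles over the 8 arrays, the closest pairs were Pax8 with Wfdc2, at a root mean square distance of 0.22 (log2), and Sec14l3 with Upk3b, at 0.23. The farthest pair was Muc1 with Epcam, at 1.35. By nearness to Wfdc2, Pax8 ranked 61 among 13382 genes with a RefSeq symbol, and by nearness to Pax8, Wfdc2 ranked 158, so the marker genes were not each other's nearest neighbours.

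Outside the marker lists, the genes whose centred profile over the 8 arrays lay nearest to the mean profile of the 8 marker genes were Pla2g2c, Dnah10, Emid1, Trem2, Fhit, Agbl2, Hgfac and Tcea3. Their root mean square distances ran from 0.0996 to 0.133, and their log2 differences from 1.20 for Fhit to 1.39 for Dnah10. For single genes, the nearest was Efcab10 for Pax8 (0.109), Ppp1r1b for Cdh16 (0.209), Cyp4f1 for Muc1 (0.310) and T2 for Wfdc2 (0.124). It was Begain for Sec14l3 (0.0925), Gstz1 for Msln (0.108), Ret for Upk3b (0.136) and Arhgap20 for Epcam (0.155). These likenesses include the difference between the labels and are descriptive.

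Other genes of the oviduct and Mullerian duct lining moved in both directions. Of 24 listed genes 21 were tested: 9 rose and 2 fell in arrays labelled PMSG, and 10 did not pass; of all genes with a RefSeq symbol, 20.7% were higher and 18.3% lower. The median log2 difference was 0.61. The transcription factor gene Klf5 was higher by 1.77 (limma adjusted p = 4.70e-04) and the tight junction gene Cldn4 by 1.72 (limma adjusted p = 2.63e-04). The matrix protease gene Mmp7 was lower, from 2.15 ± 0.37 (SD, n = 4) to 0.28 ± 1.08 (SD, n = 4), and the folate receptor gene Folr1, named because only 2 genes fell, was lower by -0.90. The Lhx1 probe was not well above background on any array, and Slc34a2 was above it on 1 PMSG-labelled array.

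Of 18 genes of the ovarian surface epithelium and mesothelium, all tested, 6 were higher, 1 was lower and 11 did not pass. Shares over all genes with a RefSeq symbol were 20.7% higher and 18.3% lower. The median log2 difference of the list was 0.44. Gpm6a, a membrane glycoprotein gene, was higher by 1.10 (limma adjusted p = 7.70e-04). Wt1, the transcription factor of mesothelium and also of granulosa cells, was higher by 1.04 with its brightest probe, and its other 2 probes gave 0.41 and 0.56. Aldh1a1, encoding a retinaldehyde dehydrogenase, was the 1 lower gene, with 3.47 ± 0.39 (SD, n = 4) under the PMSG label against 4.59 ± 0.15 (SD, n = 4) under the control label.

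Genes of ciliated cells, the other cell type of the oviduct lining, were higher without exception among those tested. All 11 passed, with a median log2 difference of 1.67, beside 20.7% of all genes with a RefSeq symbol called higher. The labels did not overlap for 10 of them, where 17.9% of all tested probes were separated in that direction, but they overlapped for Dnai2. With median centring, the replicate block or the deposited table, among other alternatives, 10 passed. Dynlrb2 and Tekt2, which encode parts of the ciliary motor and axoneme, were higher by 2.09 and 2.01. Dnah5, a dynein heavy chain gene, was well above background on only 2 of 4 control-labelled arrays and at least 2.37-fold higher under the PMSG label. Hydin was above background on 0 control-labelled and 3 PMSG-labelled arrays and was not tested, and Mcidas was above it on 0 arrays.

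Several of the 8 genes also mark kidney, thyroid, urothelium, airway or uterus. Of 14 tested genes of kidney and mesonephric tubules, 6 were higher and 1, the water channel gene Aqp2, was lower, with a median of 0.67. Over all genes with a RefSeq symbol, 20.7% were higher and 18.3% lower. The proton pump gene Atp6v1b1 was well above background on 0 control-labelled and 4 PMSG-labelled arrays, and at least 7.36-fold higher in the latter. It is among the 6 but met the filter only through the arrays labelled PMSG, so its call partly follows from the filter. The salt transporter gene Slc12a1 was higher by 1.13. The Kcnj1 probe was above background on 0 arrays.

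The small counts that follow stand beside 20.7% of all genes with a RefSeq symbol called higher and 18.3% called lower. Of the thyroid list 2 of 5 genes were higher, among them the thyrotropin receptor gene Tshr by 1.44. The other Tshr probe gave 0.65 and did not pass. Leaving out control array 1, 2, 3 or 4, or PMSG array 1, 2 or 3, left 1 thyroid gene past the threshold. Of the uterine list 3 of 7 were higher, namely Msx2 (2.11), Foxa2 (1.51) and the lactoferrin gene Ltf (1.11), with 1 control-labelled array below background for Msx2. Of 6 tested airway genes only Scgb3a1 passed (0.59), with 0 passing without control array 1, 2, 3 or 4 or PMSG array 1 or 3 and 4 passing without PMSG array 4, and Scgb3a2 and Sftpa1 were above background on 0 arrays. Of 2 tested urothelial genes Upk1a passed (0.56), and Upk2 was above background on 0 arrays.

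**Figure D3:**
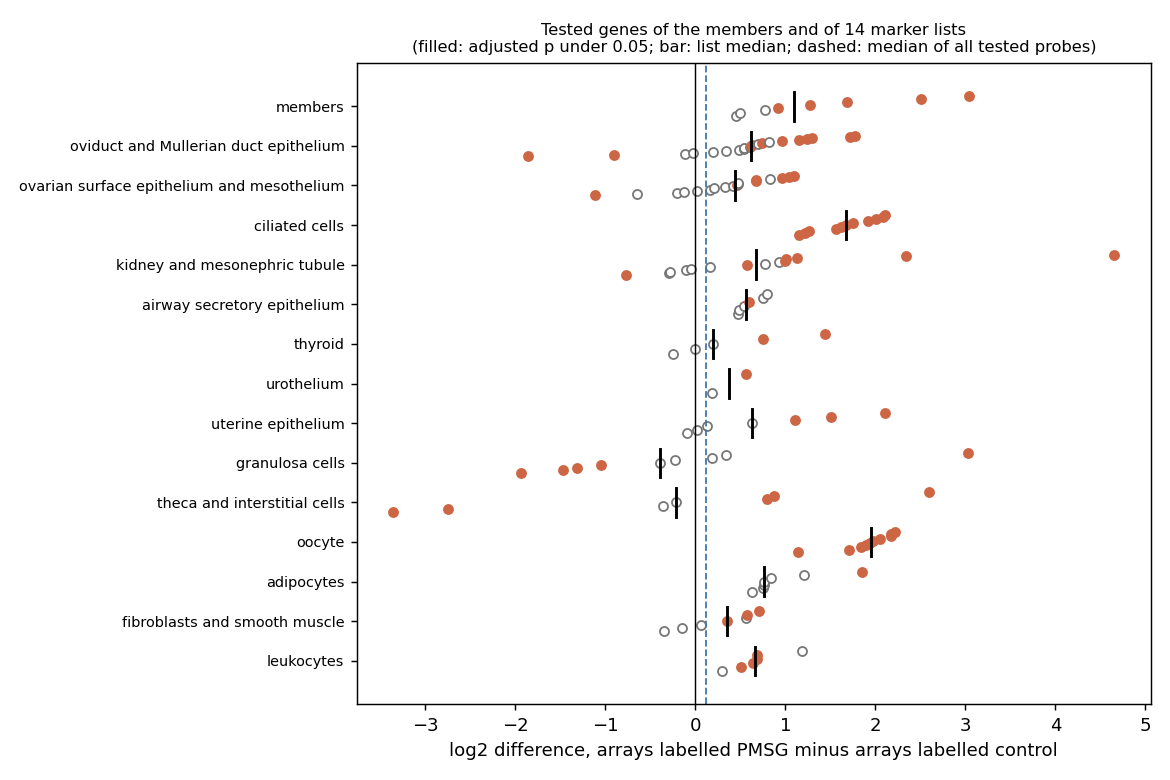
Each point is the log2 difference (labelled PMSG minus labelled control) of 1 tested gene, by list, filled where the adjusted p was under 0.05; bars are list medians and the dashed line is the median of all probes, 0.11. Ciliated cell and oocyte genes lie wholly to the right, with medians of 1.67 and 1.95, while the surface epithelium list is centred at 0.44 and the granulosa list at -0.39.

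Other cell types of the ovary moved at the same time. All 10 oocyte genes were higher, with a median of 1.95, and 4 of 6 leukocyte genes were higher, with a median of 0.66. Of 9 granulosa genes 1 was higher and 4 were lower. Of 7 theca and interstitial genes 3 were higher and 2 were lower, with a median of -0.22. Over all genes with a RefSeq symbol, 20.7% were higher and 18.3% lower. The summed level of each list, as linear signals over the 75th percentile, was taken for each array. Such a sum is weighted towards the brightest genes. For the 8 marker genes it ran from 8.74 to 12.1 in arrays labelled control and from 21.8 to 32.8 in arrays labelled PMSG, of which Wfdc2 alone made up 45.6% to 50.7% and 56.9% to 61.8%. Without Wfdc2 the sums ran from 4.47 to 6.58 and from 8.32 to 12.9. For ciliated cells it ran from 8.47 to 14.1 and from 22.8 to 41.2, for oocytes from 3.77 to 6.70 and from 13.7 to 27.3, and for leukocytes from 6.99 to 8.72 and from 11.1 to 12.6. For the oviduct and Mullerian list the ranges overlapped, at 46.2 to 60.3 and 54.2 to 81.9. Those of the surface epithelium and mesothelium list also overlapped, at 56.5 to 62.8 and 57.8 to 66.5. The latter sum includes the lower Aldh1a1, one of its bright genes, beside the 6 genes that rose. The part of any of these in the differences of the 8 genes was not tested.

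The order of the arrays by summed level differed between these lists. Among arrays labelled PMSG, the 8 marker genes had their lowest sum on array 1 (21.8), then arrays 2 and 3 (30.3), and their highest on array 4 (32.8), and the ciliated cell genes summed to 22.8, 32.0, 34.0 and 41.2 on arrays 1 to 4. Sums of the fibroblast and smooth muscle genes rose in the same order, at 154, 175, 204 and 206. The oocyte genes had the opposite order, at 27.3, 22.9, 19.9 and 13.7. Among arrays labelled control, array 3 had the highest and array 4 the lowest sum for the marker genes, the oviduct and Mullerian list and the ciliated cell list. The kidney, thyroid and fibroblast lists had the same extremes, so this order was not particular to genes of the oviduct lining. With each marker gene weighted equally, as the mean deviation from its label's mean, PMSG array 3 (0.17) and not array 4 (0.086) was the highest. With 4 arrays per label these orders are descriptive.

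**Figure D4:**
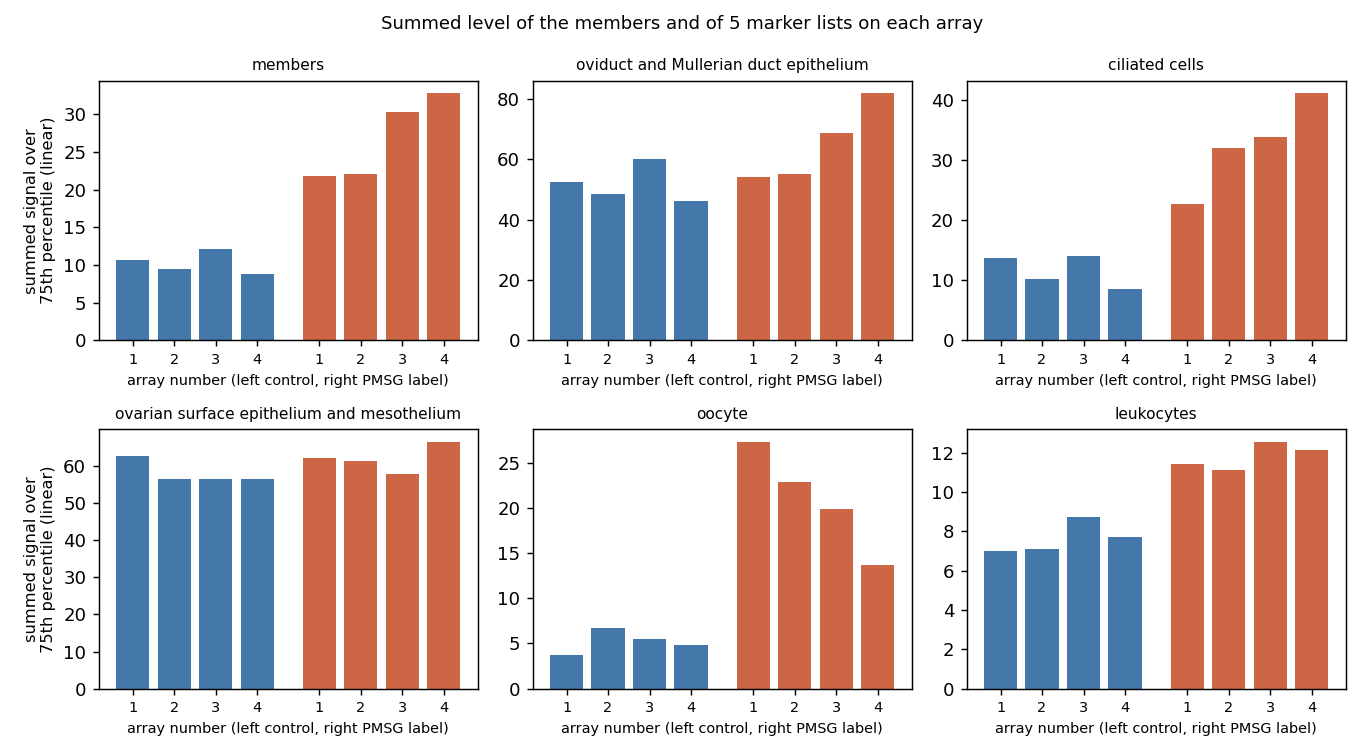
Bars give, for each array, the sum of linear signals relative to the 75th percentile over the genes of a list, with control-labelled arrays on the left and PMSG-labelled arrays on the right of each panel. The sums of the marker genes (21.8 to 32.8, mostly Wfdc2) and of the ciliated cell genes (22.8 to 41.2) are highest on PMSG array 4, where the oocyte genes are at 13.7, their lowest among arrays labelled PMSG.

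Upstream sequences are shown for 3 of the genes that rose, Muc1, Wfdc2 and Pax8. RefSeq promoters of the GRCr8 assembly were matched by symbol for 6 of the 8 genes, all but Cdh16 and Msln, and the 250 bases before the start were searched on both strands for 5 motifs chosen after the sequences had been seen. The letters searched were TATAAA for a core promoter box, GGGCGG for the box of Sp1 factors, CACCTG for an E-box, AAGGTCA for a nuclear receptor site and TGACG for the core of the cAMP element. Matches on either strand are in capitals, and those of different motifs did not overlap.
Muc1 (chr2:176933500-176933749, plus strand): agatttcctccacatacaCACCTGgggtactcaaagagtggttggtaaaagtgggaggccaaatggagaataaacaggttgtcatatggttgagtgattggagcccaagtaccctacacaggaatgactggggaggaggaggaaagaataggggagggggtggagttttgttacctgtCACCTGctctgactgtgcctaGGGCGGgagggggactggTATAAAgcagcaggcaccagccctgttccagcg
Wfdc2 (chr3:173706225-173706474, plus strand): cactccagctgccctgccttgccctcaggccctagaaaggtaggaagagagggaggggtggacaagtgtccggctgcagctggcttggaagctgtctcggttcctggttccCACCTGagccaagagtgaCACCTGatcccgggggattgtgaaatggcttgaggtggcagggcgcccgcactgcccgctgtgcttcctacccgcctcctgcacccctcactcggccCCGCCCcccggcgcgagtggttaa
Pax8 (chr3:27640632-27640881, minus strand): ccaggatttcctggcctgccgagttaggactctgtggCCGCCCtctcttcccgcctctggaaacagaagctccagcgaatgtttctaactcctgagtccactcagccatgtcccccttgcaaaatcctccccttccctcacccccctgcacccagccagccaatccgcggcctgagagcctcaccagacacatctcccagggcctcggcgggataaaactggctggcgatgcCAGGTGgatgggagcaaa

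The E-box letters CACCTG were present upstream of 5 of these 6 genes, all but Upk3b, and upstream of 15.9% of 33469 promoters. GGGCGG was present upstream of 4 of 6 and of 30.5% of all promoters, and TATAAA upstream of Muc1 alone and of 12.9%. AAGGTCA and TGACG were found upstream of 0 of the 6 genes, and upstream of 3.99% and 18.2% of all promoters. The genes with CACCTG include Sec14l3 and Epcam, which did not pass, so its presence did not follow the calls. Because the motifs were chosen after these sequences had been seen, the counts beside the shares are descriptive and were not tested. A match is a stretch of letters and no measured binding.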

How the data were processed

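The authors' scanner files hold spot intensity extracted with Agilent Feature Extraction 11.5.1.1, per the file headers, with detrended background and with probe positions on build rn4. Cy3 labelling started from 500 ng of total RNA, per the labels. A table of log2 values that the authors deposited served as an alternative; its scale matched the log2 signal minus the 75th percentile, without centring of probes, and column medians ran from -3.21 to -2.82.

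Control and outlier spots were left out, and log2 processed signals were averaged per probe. Each array's 75th percentile was subtracted. Of 30367 probes, 17 lacked a usable spot on some array. A probe was tested where at least 0.5 of its spots were well above background on at least 4 of 8 arrays, leaving 25303. Groups came from the sample titles and were compared by limma 3.58.1 (R 4.3.3; lmFit and eBayes without covariates). P-values were adjusted by Benjamini-Hochberg across the tested probes, and the threshold was 0.05. The procedure was tested on simulated data. A gene with several probes is represented by its brightest. The number of arrays limits the precision.

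All 8 marker genes are named, with up to 3 genes per list that had the largest difference among those past the threshold, the 8 genes nearest to the mean profile and the nearest to each marker gene; 2 list genes that this rule names are not reported here. The marker genes and the 14 lists (144 genes, 130 tested) were chosen with earlier results of these data known. Ovgp1, Dnah9, Spag17, Rsph4a and Cyp19a1 were not analysed here, and Mcidas was matched through RefSeq. The genes of the theca, adipocyte, fibroblast and leukocyte lists served to describe other cell types. Alternatives covered scaling, background correction, the deposited table, the filter, array weights, blocks and leaving out each array.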

Additional observations from a re-analysis of the deposited data

Results flagged for a closer look

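In 5 of 84 groups of 4 arrays, 1 value lay well away from the rest (its distance to the closest other value, as a share of the whole range, is given as the gap), and chance would do this in about 1 in 20 groups. Of the 8 marker genes this concerned Cdh16, for which control array 4 (gap 0.887 of the range) was at -1.31 against -0.72 to -0.65. PMSG array 4 was apart for Klf5 of the oviduct list (gap 0.836), at 1.41 against 0.61 to 0.74, and for the theca gene Insl3 (gap 0.921), at 2.49 against 3.50 to 3.59. PMSG array 3 was the low one for Atp6v1b1, with -4.29 (gap 0.853) where the rest had -3.45 to -3.30, and the high one for the leukocyte gene Laptm5 (gap 0.903), at 2.52 against 2.42 to 2.43. Cdh16 passed the threshold without each array in turn, as under all of its 17 alternatives.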

How the results depend on the processing

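Pax8, Cdh16, Muc1, Wfdc2 and Upk3b kept their direction and their call under every alternative that gave them a value, Epcam missed the threshold under all 17, and Msln under 16 of 17. Muc1 had no value under the filter for all 8 arrays. Sec14l3 passed with quantile normalization (0.57), median centring (0.61), the filter for all 8 arrays (0.78), array weights (0.92) and the replicate block (0.78, limma adjusted p = 0.0463), and with single arrays removed it spanned 0.57 to 1.03, passing without PMSG array 4. Msln ran from 0.39 to 0.65 in the same way, passing without PMSG array 1. The number of marker genes past the threshold was 5 or 6 throughout. The count of probes past the threshold was 8658, or 7346 with the replicate block, with extremes of 6552 when control array 4 was left out and 11382 when PMSG array 4 was. That of other listed genes was 71 and ran from 58 to 74. A block for slide or scan was not run, since there was 1 of each. Whether the replicate numbers pair the arrays is not stated in the labels. Deviations of same-numbered arrays correlated at 0.0444, 0.0361, 0.183 and -0.0192. Differently numbered arrays were not compared, so these values cannot settle a pairing. Apart from Sec14l3, the replicate block changed no call of the 8 genes. The causes were not tested.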

Other observations

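Markers of fat and stroma were measured beside the epithelial genes. Their counts stand beside 20.7% of all genes with a RefSeq symbol called higher and 18.3% called lower. Of 7 adipocyte genes only Cidea passed, higher by 1.85 in arrays labelled PMSG (limma adjusted p = 0.00577), and the summed level of the list spread from 6.35 to 47.9 over arrays labelled control and from 19.8 to 53.8 over those labelled PMSG. PMSG array 4 had the lowest sum of its label for the adipocyte list. Of 7 fibroblast and smooth muscle genes 3 were higher, Dcn by 0.70, Lum by 0.58 and Col3a1 by 0.35, and with median centring 0 passed. Without control array 1, 2 or 4 or PMSG array 3, 1 of them passed, and without control array 3 or PMSG array 4, 2 adipocyte genes did.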
